A study of Mus musculus with 24 samples.

Results

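Male blastocysts of obese mothers were compared directly with male blastocysts of obese fathers, 4 arrays against 4, out of the 24 arrays of the study. The arrays were chosen by their labels alone. Each array measured 1 pool made from the lysates of 3 male embryos of a single mother, collected on day 3.5 after mating. The parents were outbred NMRI mice. The obese parent had received a high-fat, high-calorie diet (a modified D12492) from 3 weeks of age, over 9 weeks, and the lean parent a matched control diet. Both were mated at 12 weeks, and all animals ate the control diet during mating. In obese-mother males the father was therefore lean (arrays 5 to 8), and in obese-father males the mother was lean (arrays 9 to 12). Males of lean parents on both sides (arrays 1 to 4) and the female pools serve as background. They also enter the estimate of each gene's spread, on which every limma SE and p-value rests. There were 7 animals on the high-fat and 14 on the control diet. The labels used here do not tie pools to parents, so pools may share one, and p-values measure the spread between pools.

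A blastocyst consists of the trophectoderm, an outer epithelium that will form placenta, around an inner cell mass that gives rise to the epiblast and the primitive endoderm. Before implantation it turns from pyruvate towards glucose, runs its mitochondria harder and builds many ribosomes. An obese mother reaches the embryo through the oocyte, with its mitochondria and stored RNA, and through the oviduct. An obese father reaches it through the sperm, with its chromatin and small RNAs. The direct comparison sets these routes against each other in embryos of 1 sex.

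All levels are log2 intensities as deposited, and a difference is always obese-mother minus obese-father males unless stated otherwise. In a pool of whole embryos, fewer cells of a type and less RNA per cell cannot be told apart. The trophectoderm markers Krt8 (6.50 to 7.98 on the obese-mother arrays, 6.13 to 8.48 on the obese-father arrays) and Krt18 (5.51 to 6.74 and 6.54 to 7.91) had high signal on every array. So had Pou5f1, a marker of the inner cell mass (5.61 to 7.26 and 5.61 to 8.29). Markers of the labelled tissue were therefore present. The sex labels were harder to check. The Y-linked translation factor gene Eif2s3y averaged 2.08 ± 0.70 and 2.20 ± 0.38 (SD, n = 4) in the male groups and 1.29 to 1.37 in the 3 female groups, but stood above the median of all values (2.56) on 3 of 24 arrays and was not tested. Y-linked Uty was above it on 0 arrays, with means of 1.79 to 2.08 in the male and 1.67 to 1.85 in the female groups. Xist, which the inactive X of females expresses, ran from 1.86 to 2.24 in obese-mother and from 1.93 to 2.68 in obese-father males, and from 2.05 to 3.22 and 2.11 to 2.79 in the females, so the sexes overlapped. Sry was above that median on 23 of 24 arrays, pools of both sexes included, and checks nothing. Any pair of the 8 arrays correlated at 0.79 to 0.939 across probe sets.

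Of 13311 genes tested, 1 passed an adjusted p under 0.05 (0.00751%). It was Snord47, on chromosome 1. Snord47 is a small nucleolar RNA of the box C/D class, whose members guide ribose methylation of ribosomal RNA, and it is cut from an intron of the non-coding gene Gas5. Its level on the obese-mother arrays was 1.50, 1.75, 2.19 and 1.43. On the obese-father arrays it was 4.09, 2.87, 3.48 and 4.74. The groups did not overlap, and the lean-parent males, at 1.07 to 2.09, lay with the obese-mother males. The group means were 1.72 ± 0.34 and 3.79 ± 0.81 (SD, n = 4 each). The difference was -2.08 (SE 0.32, 95% interval -2.75 to -1.40, limma adjusted p = 0.0279). Its SE uses the spread within all 6 groups of the 24 arrays, and the obese-father SD was the larger of the 2 above. With the 8 arrays alone the limma adjusted p was 0.454, and with the 12 male arrays 0.469. The obese-mother level lay below the median of all values (2.56) on every array, so no fold is given. Snord47 exceeded the median of all values on 4 of 24 arrays, the obese-father males alone, and so entered the test only through the group in which it was high.

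The call for Snord47 was sensitive to single pools. Its direction could not turn when 1 array was left out, since the groups did not overlap. Leaving out each array in turn gave differences of -1.76 to -2.38. The call held without obese-mother array 7 (adjusted p = 0.0324) and without obese-father array 10 (0.00234). It was lost without obese-mother array 5 (0.199), 6 (0.13) or 8 (0.217) and without obese-father array 9 (0.22), 11 (0.0583) or 12 (0.154). Between the females of obese mothers and of obese fathers, whose arrays are separate, the difference was -0.02 (SE 0.32), with means of 1.75 ± 0.36 and 1.77 ± 0.47. The change of the difference between the sexes was -2.06 (SE 0.46, unadjusted p = 0.00019) and did not pass over all genes (limma adjusted p = 0.99955). Against lean-parent males the obese-father males differed by 2.26 and the obese-mother males by 0.19. These comparisons share arrays with the direct one and are no further evidence.

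**Figure D1:**
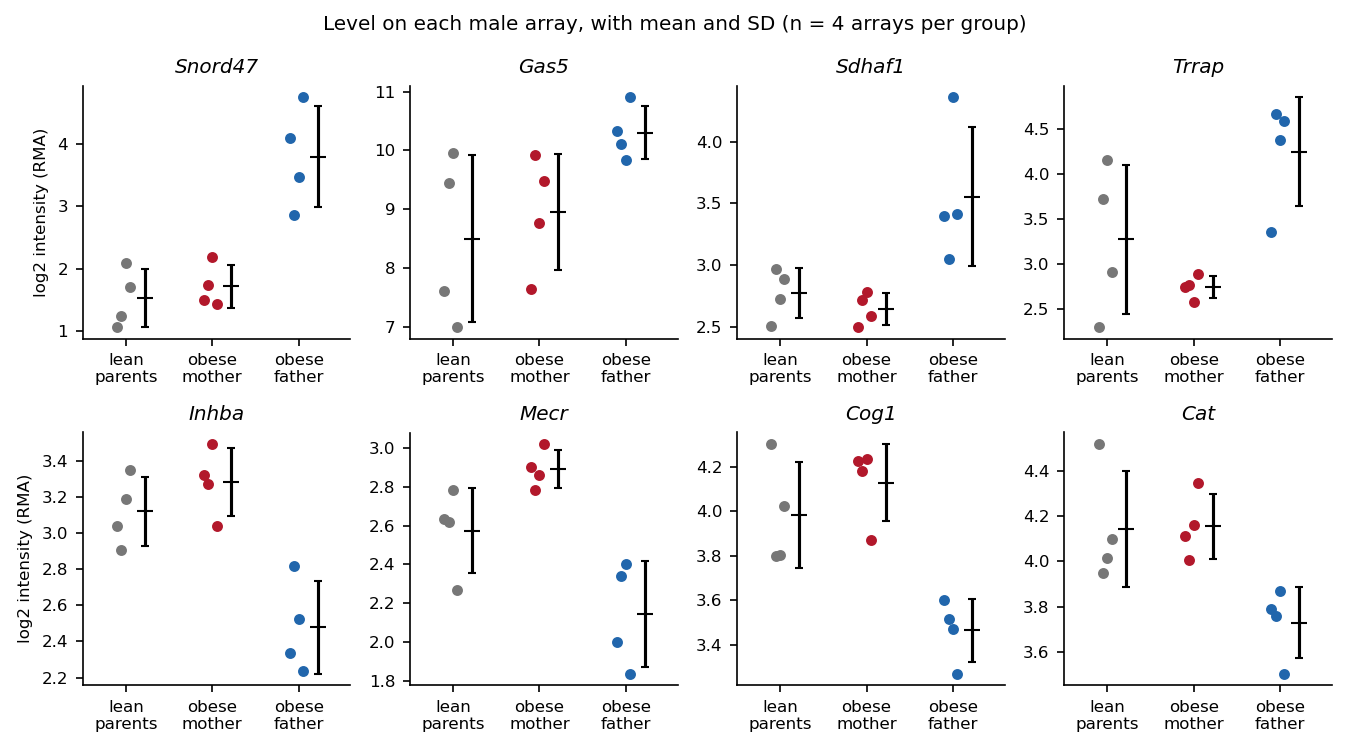
Level of 8 genes on each male array (points; vertical axis, log2 intensity) for lean parents, obese mothers and obese fathers, with the mean and SD of each group (black, n = 4 arrays). The 4 obese-father arrays lie above all other arrays for Snord47 (2.87 to 4.74), and below all obese-mother arrays for Inhba, Mecr, Cog1 and Cat.

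Gas5, the host of Snord47, also carries other box C/D small nucleolar RNAs, and its spliced RNA accumulates when growth stops. Its transcript opens with a terminal oligopyrimidine sequence, the start that ribosomal protein genes use and that ties their translation to growth signals. The starts of Gas5 and of the ribosomal protein gene Rplp2 are shown because both genes had higher means in obese-father males. For Rplp2 that mean was raised by obese-father array 12 (7.55, the others 5.55 to 5.67). The printed stretches run from 35 bases before to 30 bases from the annotated first base onwards. Capitals mark the pyrimidine run at the start. For each gene the first annotated start with such a run was printed, so its presence was fixed by that choice. Both stretches are read from RefSeq (GRCm38.p6), from the plus strand at chr1:161035131-161035195 and chr7:141447616-141447680.

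Gas5: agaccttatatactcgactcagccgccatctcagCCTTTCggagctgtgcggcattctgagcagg
Rplp2: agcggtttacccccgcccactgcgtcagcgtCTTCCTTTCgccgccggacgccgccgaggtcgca

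A run of at least 5 C or T letters that opened with C within 5 bases of the start, on the strand of the gene, was found at 5718 of 27025 genes with a start in that table (21.2%). It was found at 30 of 62 cytosolic ribosomal protein genes (48.4%) and 8 of 17 snoRNA host genes (47.1%). It was found at 17 of 67 respiratory chain genes (25.4%), 8 of 36 chaperone and proteasome genes (22.2%), 6 of 29 translation factors (20.7%) and 6 of 37 ribosome biogenesis genes (16.2%). A gene was counted if any of its annotated starts matched. A match is a description of these letters and not evidence of a working site.

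The brightest Gas5 probe set read 7.65, 9.92, 8.77 and 9.49 on the obese-mother arrays and 10.34, 10.12, 9.84 and 10.90 on the obese-father arrays. Only obese-mother array 6 reached into the obese-father range. The difference was -1.34 (SE 0.70, limma unadjusted p = 0.0693, adjusted p = 0.576). Gas5 has 4 probe sets, which were examined singly after their values were seen. The second set read 2.33 to 3.10 in obese-mother and 3.31 to 6.27 in obese-father males, without overlap (difference -1.92, limma unadjusted p = 0.0334, adjusted p = 0.558 over all probe sets). The other 2 sets differed by -0.24 and -1.10, with overlapping groups. The host gene therefore stood on the same side as the small RNA without passing the test. Among the 8 arrays its brightest set was lowest on 5 and 7, with the smallest signal spread (SD of all values, 1.32 and 1.36). It was highest on array 12, with the largest (1.72). Arrays 8 and 6 (spread 1.50 and 1.54) read 9.49 and 9.92, against 9.84 to 10.34 on arrays 9 to 11 (1.49 to 1.52). The shared side is therefore not taken as support for Snord47.

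The array held 54 genes for small nucleolar RNAs. Without any filter on dim genes, their median difference was -0.13, against 0.10 for all 19938 genes, and 31 of the 54 lay below 0. At an unadjusted p under 0.05, 4 were lower in obese-mother males and 0 higher. Over all genes 1.73% were lower and 6.58% higher by this rule. Without Snord47 the median stayed at -0.13 and 3 were lower. Of the 23 small nucleolar RNAs above the filter, Snora30, a box H/ACA member that guides pseudouridylation, differed by -1.16 (SE 0.42, limma unadjusted p = 0.0119, adjusted p = 0.573). Its obese-father arrays were 3.12, 2.29, 5.27 and 2.49 against 1.91 to 2.32 in obese-mother males, with array 11 far above the rest. Snord8 differed by -0.48 (unadjusted p = 0.0195). Several others had large differences carried by uneven obese-father arrays, as in Snord104 (3.97 ± 1.96 in obese-father against 2.43 ± 0.54 in obese-mother males, difference -1.54) and Snora7a (3.82 ± 2.48 against 2.81 ± 0.23). Among the 6 tested host genes 4 lay above 0 and 2 below, where 65.1% of all genes tested lay above 0. Their median was 0.21 as deposited, -0.03 with the signal spread as a covariate and -0.01 for arrays of similar spread. Snhg5 was at 2.86 ± 0.54 in obese-mother and 3.93 ± 0.51 in obese-father males (difference -1.06, unadjusted p = 0.0084, adjusted p = 0.573), while Snhg16 differed by 0.51 (unadjusted p = 0.0462).

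Below the threshold of the adjusted p, 1112 genes (8.35%) had an unadjusted p under 0.05. Of these 835 were higher (6.27%) and 277 lower (2.08%) in obese-mother males. The groups did not overlap for 911 genes (6.84%), 741 higher (5.57%) and 170 lower (1.28%). Of all differences 65.1% lay above 0, and their median was 0.09. The larger number of higher genes was sensitive to scale. With the signal spread of each array as a covariate the counts were 463 higher and 289 lower, so the share of higher genes went from 75.1% to 61.6%. It was 63.7% with arrays centred on their medians, 67.0% after quantile normalization and 56.9% among arrays of similar spread (137 higher, 104 lower). Without obese-father array 12 the total was 449, without obese-mother array 5 574 and without obese-mother array 7 629.

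The 14 genes with the smallest unadjusted p on each side are described next. All but Snord47 missed the threshold, and the values that chose them are given as a description. Inhba stood first among the higher genes. It encodes the subunit shared by activin A and inhibin A, signals of the transforming growth factor beta family. Its level was 3.32, 3.27, 3.49 and 3.04 in obese-mother males and 2.33, 2.82, 2.53 and 2.24 in obese-father males. Every obese-mother array exceeded every obese-father array, by a mean of 0.80 (SE 0.16, 95% interval 0.47 to 1.13; limma adjusted p = 0.271). On 3 of the 4 obese-father arrays Inhba lay below the median of all values, so no fold is given. Lean-parent males were at 3.12 ± 0.19. In females the difference was 0.26, with means of 3.04 ± 0.07 and 2.79 ± 0.36.

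Inhba is also made by granulosa and cumulus cells, which surround the oocyte. Of 19 listed genes of those cells on the array 13 were tested, Inhba itself included. The list means, which are thus not separate from Inhba, were 3.0 to 3.27 in obese-mother and 2.67 to 2.98 in obese-father males. Among the defining markers of those cells, Amh was at 3.70 to 4.45 and 3.53 to 4.12. Has2 was at 2.29 to 2.99 and 1.87 to 2.49, and Fshr exceeded the median of all values on 1 of 24 arrays. No array value has a true zero. The part of such cells in the difference of Inhba was not tested.

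Mecr, the mitochondrial enoyl reductase that completes each round of fatty acid synthesis inside mitochondria, was second. It read 2.90, 2.78, 2.86 and 3.02 against 2.0, 2.34, 2.40 and 1.84, again without overlap (difference 0.75, SE 0.16; limma adjusted p = 0.315). The Golgi tether subunit Cog1 read 4.22, 4.18, 4.24 and 3.87 against 3.60, 3.51, 3.47 and 3.27 (difference 0.66). The Cdc42 effector Cdc42ep2 differed by 0.60 and overlapped by a small margin, since obese-mother array 8 (3.30) lay below obese-father array 9 (3.35). Acylphosphatase, Acyp1, had 2 bright obese-mother arrays, 6 (3.64) and 8 (3.56), and 2 dim ones, 5 (2.53) and 7 (2.40), against 1.98 to 2.36 in obese-father males. Its difference was 0.87 (SE 0.23, limma adjusted p = 0.573).

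The rest of the higher genes included secreted and developmental factors. The chemokine Cxcl14 was at 2.88 ± 0.22 against 2.20 ± 0.30, and the ligand Wnt10b at 3.40 ± 0.12 against 2.84 ± 0.31. Ptf1a, a pancreatic and neural transcription factor, was at 3.22 ± 0.24 against 2.63 ± 0.17, and Coch, an extracellular matrix protein, at 2.52 ± 0.09 against 2.03 ± 0.18. Camk2n1, an inhibitor of calcium/calmodulin-dependent kinase II, differed by 0.54, and Kctd15, an inhibitor of the transcription factor AP-2, by 0.55. Pomt1, which starts O-mannosylation of proteins, differed by 0.49, Fam167a by 0.65 and Tmem267 by 0.51. The groups did not overlap in 13 of these 14 genes, where 5.57% of all genes were higher without overlap. The choice by p nearly fixes that count, and nothing is read from it. Their adjusted p ran up to 0.573.

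Among the lower genes, Sdhaf1 followed Snord47. It encodes an assembly factor that inserts iron-sulphur clusters into succinate dehydrogenase, complex II of the respiratory chain. Its level was 2.50, 2.72, 2.78 and 2.58 in obese-mother males and 3.40, 3.05, 4.36 and 3.41 in obese-father males. All obese-father arrays were higher, array 11 most (difference -0.91, SE 0.18, 95% interval -1.29 to -0.53; limma adjusted p = 0.271). Lean-parent males were at 2.77 ± 0.20, and the female difference was 0.03.

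Thumpd1, an adaptor for acetylation of transfer RNA, read 2.14, 2.11, 2.30 and 2.91 against 3.07, 3.47, 4.21 and 3.53 (difference -1.20, SE 0.28). Trrap, the large scaffold of histone acetyltransferase complexes, was nearly constant in obese-mother males, at 2.58 to 2.88, and read 3.36, 4.67, 4.38 and 4.59 in obese-father males (difference -1.50). Lean-parent males ran from 2.30 to 4.16 for Trrap, across the obese-mother values and over the lowest obese-father value. Gins1, part of the replicative helicase, had the largest difference of the 28 genes, -2.27 (SE 0.62). Its obese-father arrays were scattered, at 3.15, 4.84, 5.13 and 6.97, against 2.30 to 3.19. Arfgef2, an exchange factor for the ARF GTPases of the Golgi, differed by -1.30, mostly through obese-father array 10 (6.12).

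The remaining lower genes included C1d, a cofactor of the nuclear exosome that trims ribosomal RNA (2.95 ± 0.35 against 3.68 ± 0.26). Alyref2, an mRNA export factor, was at 2.41 ± 0.29 against 3.43 ± 0.55. Pigh, an enzyme subunit of the first step towards glycosylphosphatidylinositol anchors, was at 2.10 ± 0.09 against 2.85 ± 0.39. Nhlrc1, a ubiquitin ligase of glycogen metabolism, was at 4.62 ± 0.21 against 5.22 ± 0.37. Trp53rka was at 1.77 ± 0.28 against 2.88 ± 0.83. It has a near-identical copy, Trp53rkb, and signal from the pair may not be separable. The groups did not overlap in 11 of the 14 lower genes, where 1.28% of all genes were lower without overlap, and the choice by p bears on that count too.

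**Figure D2:**
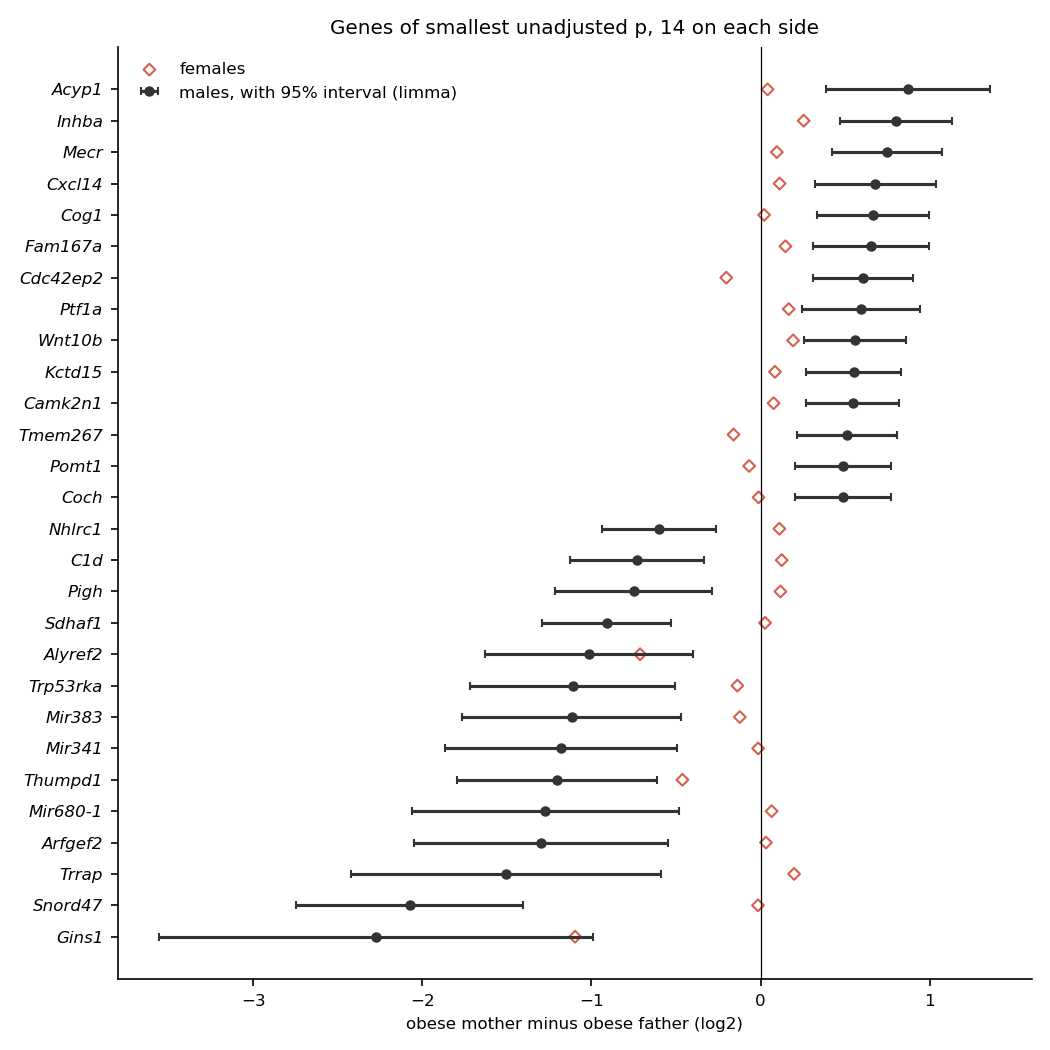
Obese-mother minus obese-father difference (horizontal axis, log2) of the 28 genes with the smallest unadjusted p, 14 on each side, in males with its 95% interval (filled, n = 4 arrays per group) and in females (open). The genes were chosen on the male values, whose distance from 0 is thus no finding. The female values scatter around 0, with Gins1 (-1.10), Alyref2 (-0.71) and Thumpd1 (-0.46) farthest below it.

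The same 28 genes were read in female pools on separate arrays, which may share parents with the male pools. Of the 14 higher genes in males, 10 were above 0 in females, with a female median of 0.08 against 0.03 over all genes. Of the 14 lower genes 7 were below 0 in females, with a median of 0.01. At an unadjusted p under 0.05, 0 of the higher and 1 of the lower genes differed in females, where 3.25% of all genes did (limma; 0 of 13311 passed the adjusted p). The difference between the sexes was tested for every gene, and 0 passed in limma, with 358 (2.69%) at an unadjusted p under 0.05.

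Of 300 microRNA genes on the array 16 were higher and 11 lower at an unadjusted p under 0.05 without a filter, and their median was 0.08. These are 5.33% and 3.67%, against 6.58% and 1.73% of all genes, whose median was 0.10. With the spread as a covariate 4 were higher and 15 lower and the median was -0.02, so its direction turned. In that setting 670 of all 19938 genes were higher and 404 lower, with a median of 0.03. Of the microRNA genes, Mir341, Mir680-1 and Mir383 were among the 14 lower genes. Sequences are printed for the 3 of 4 named microRNA genes with an entry in RefSeq (GRCm38.p6), with the seed (bases 2 to 8) in capitals. No seed is shared between them.

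mmu-miR-341-5p: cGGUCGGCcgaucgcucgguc
mmu-miR-341-3p: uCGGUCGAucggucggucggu
mmu-miR-680: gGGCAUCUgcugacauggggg
mmu-miR-205-5p: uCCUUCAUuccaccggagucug
mmu-miR-205-3p: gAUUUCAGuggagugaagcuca

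Mir341 lies on chromosome 12 in the imprinted Dlk1-Dio3 region, whose microRNAs are read from the maternal allele. It stood at 2.89, 3.55, 2.95 and 2.52 in obese-mother and 4.17, 3.63, 3.77 and 5.06 in obese-father males, without overlap (difference -1.18, SE 0.33; limma adjusted p = 0.573). Lean-parent males were at 3.22 ± 0.30, and females differed by -0.01. Mir680-1 read 2.95, 3.85, 2.36 and 2.93 against 4.64, 4.17, 3.90 and 4.46, also without overlap (difference -1.27). Mir383 read 3.28, 4.04, 3.38 and 2.84 against 4.78, 4.24, 3.83 and 5.17 (difference -1.12), and obese-mother array 6 and obese-father array 11 crossed. Mir205, an epithelial microRNA, lay the other way, at 2.53 ± 0.17 against 1.99 ± 0.27 (difference 0.55).

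Several large gene lists moved with the signal spread, the standard deviation of all values on an array. A wide array has brighter bright genes and dimmer dim ones. Spread was 1.32, 1.54, 1.36 and 1.50 on obese-mother arrays 5 to 8, and 1.50, 1.52, 1.49 and 1.72 on obese-father arrays 9 to 12. Arrays 5 and 7 were thus narrow and array 12 wide, while the other 5 lay within 1.49 to 1.54. The group difference in spread was -0.127 (two-sided exact permutation test, p = 0.229 over 70 splits, the smallest possible being 0.0286). Where a list below has 3 medians, they are for the values as deposited, then with the spread as a covariate, then for the arrays of similar spread alone, a setting chosen after the data were seen. The list members themselves enter the spread, so list level and spread are not separate measurements. Counts at an unadjusted p under 0.05 are for the values as deposited, where 6.27% of all genes were higher and 2.08% lower. With the covariate these shares were 3.48% and 2.17%.

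Genes of protein synthesis had lower medians in obese-mother males as deposited. For 57 cytosolic ribosomal protein genes the median was -0.69, and 55 lay below 0, yet 1 had an unadjusted p under 0.05. The list mean was 6.21, 7.84, 6.63 and 7.66 in obese-mother and 7.36, 7.64, 7.58 and 8.63 in obese-father males. Obese-mother arrays 6 and 8 lay above 3 of the 4 obese-father arrays, so the median rested on arrays 5, 7 and 12. It was -0.41 without array 5 and -0.38 without array 12. With the spread as a covariate it was 0.05 and for similar arrays 0.19, so the direction turned. Rplp2, a stalk protein of the large subunit, read 3.84, 5.63, 4.32 and 5.57 against 5.55, 5.67, 5.62 and 7.55 (difference -1.25, limma unadjusted p = 0.0295, adjusted p = 0.573). Translation factors had medians of -0.70, 0.05 and 0.09, and the cap-binding factor Eif4e differed by -0.98 as deposited. Ribosome biogenesis had -0.23, 0.08 and 0.07, with the nucleolar GTPase Gnl3 at 3.70 ± 0.64 against 4.91 ± 0.37, without overlap, and the processing factor Bop1 the other way (0.46).

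**Figure D3:**
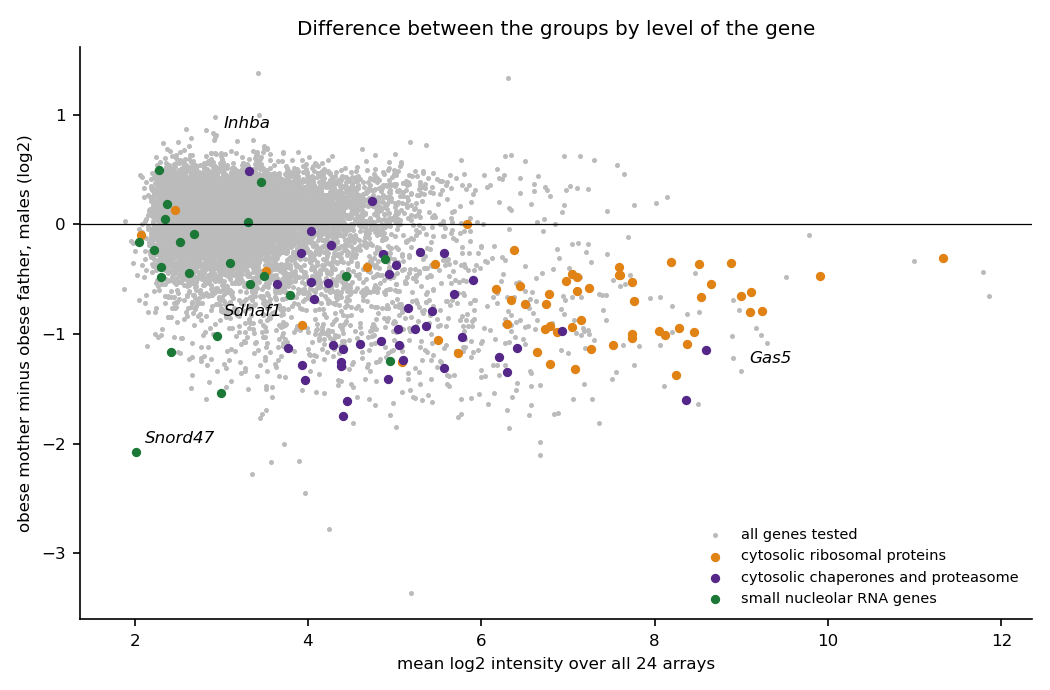
Obese-mother minus obese-father difference (vertical axis, log2) of the 13311 genes tested against their mean level over all 24 arrays (horizontal axis, log2 intensity), with 3 gene lists in colour. Ribosomal protein, chaperone and proteasome genes have mostly bright signal and lie below 0, while Snord47 stands apart at the dim end at -2.08.

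Protein folding and turnover had the lowest median of all lists. The cytosolic chaperones and proteasome subunits (43 tested) were at -0.98 as deposited, 0.06 with the covariate and 0.18 for similar arrays, with 41 below 0 as deposited and 3 lower and 1 higher at an unadjusted p under 0.05. Psmb5, a catalytic proteasome subunit, read 3.97, 5.15, 4.90 and 5.19 against 5.60, 5.93, 5.26 and 7.35 (difference -1.24, limma unadjusted p = 0.0414). Dnajb1, a heat-inducible co-chaperone, lay the other way (3.56 ± 0.48 against 3.07 ± 0.21, without overlap). In the endoplasmic reticulum stress list 7 of 25 were lower and 1 higher at an unadjusted p under 0.05, and 0 passed the adjusted p. Over all genes 2.08% were lower and 6.27% higher. With the covariate 3 were lower and 0 higher, against 2.17% and 3.48% of all genes. Its medians were -0.30, -0.13 and -0.11, below 0 under all 3 settings. The list mean was 3.49, 3.84, 3.61 and 3.95 in obese-mother and 3.93, 3.96, 4.08 and 4.80 in obese-father males. Obese-mother array 8 thus lay above obese-father array 9, and array 12 lay far above the rest. Without array 12 the median as deposited was -0.17. Lean-parent males ran from 3.50 to 4.26. The protein disulphide isomerase Pdia6 differed by -0.99 (3.89 ± 0.30 against 4.88 ± 0.86, unadjusted p = 0.00688). Sec61b, of the translocation channel, differed by -1.41. Xbp1, the transcription factor of the unfolded protein response, differed by -0.45 (unadjusted p = 0.00699), and Ern1, the stress sensor that splices it, by 0.39.

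Mitochondrial lists differed by array in the same way. The respiratory chain and ATP synthase list averaged 4.74, 5.56, 4.85 and 5.55 on the obese-mother arrays and 5.40, 5.52, 5.60 and 6.33 on the obese-father arrays. Of its 76 genes 70 lay below 0, with medians of -0.52, -0.02 and 0.06, and 5 were lower and 0 higher at an unadjusted p under 0.05, against 2.08% and 6.27% of all genes. With the covariate 1 was lower and 1 higher. Besides Sdhaf1, these included the complex I subunits Ndufb9 (5.99 ± 0.60 against 7.02 ± 0.62), Ndufs3 (4.85 ± 0.37 against 5.73 ± 0.55) and Ndufa6 (3.46 ± 0.54 against 4.38 ± 0.57). Mitochondrial import and chaperones had medians of -0.37, 0.01 and 0.08. In the tricarboxylic acid cycle (-0.16, 0.12 and 0.15) cytosolic malate dehydrogenase, Mdh1, stood out, at 2.39, 2.23, 2.21 and 2.02 against 2.45, 3.37, 3.11 and 4.82 (difference -1.23, limma unadjusted p = 0.00387, adjusted p = 0.573). Fatty acid oxidation had -0.14, -0.03 and -0.05. Etfa and Etfb, the electron carrier of that pathway, differed by -1.62 and -1.25, with overlapping groups.

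**Figure D4:**
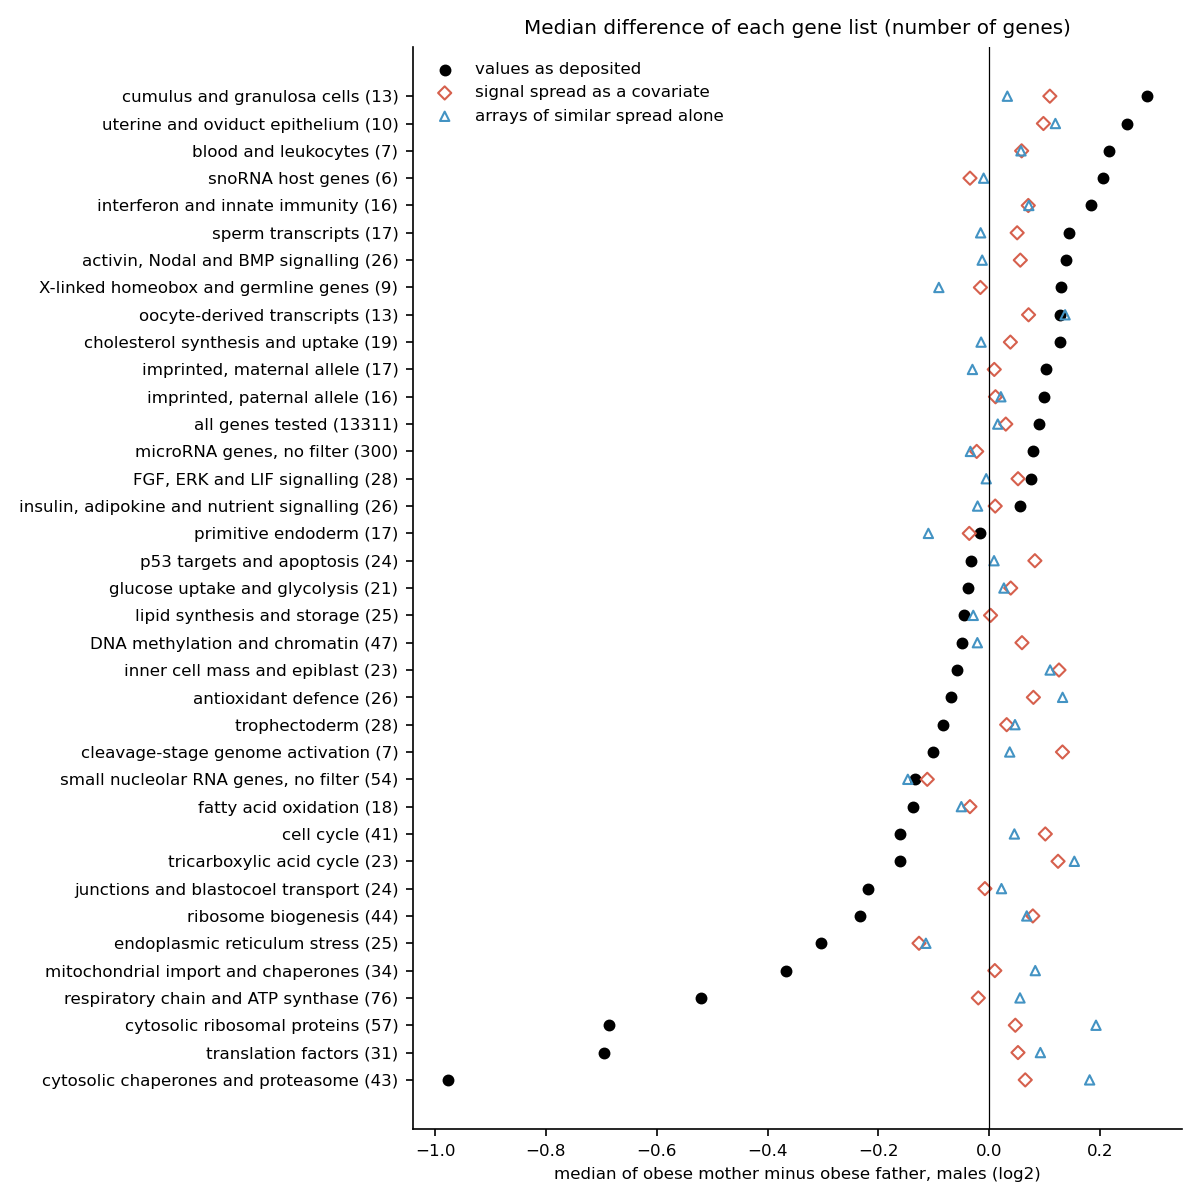
Median obese-mother minus obese-father difference (horizontal axis, log2) of each gene list in males, with the number of genes in brackets (those tested, or for both small RNA lists all on the array), for the values as deposited (filled), with the signal spread as a covariate (diamonds) and for arrays of similar spread alone (triangles). Ribosomal proteins move from -0.69 to 0.05 and 0.19, while the 54 small nucleolar RNA genes are at -0.13, -0.11 and -0.15.

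**Figure D5:**
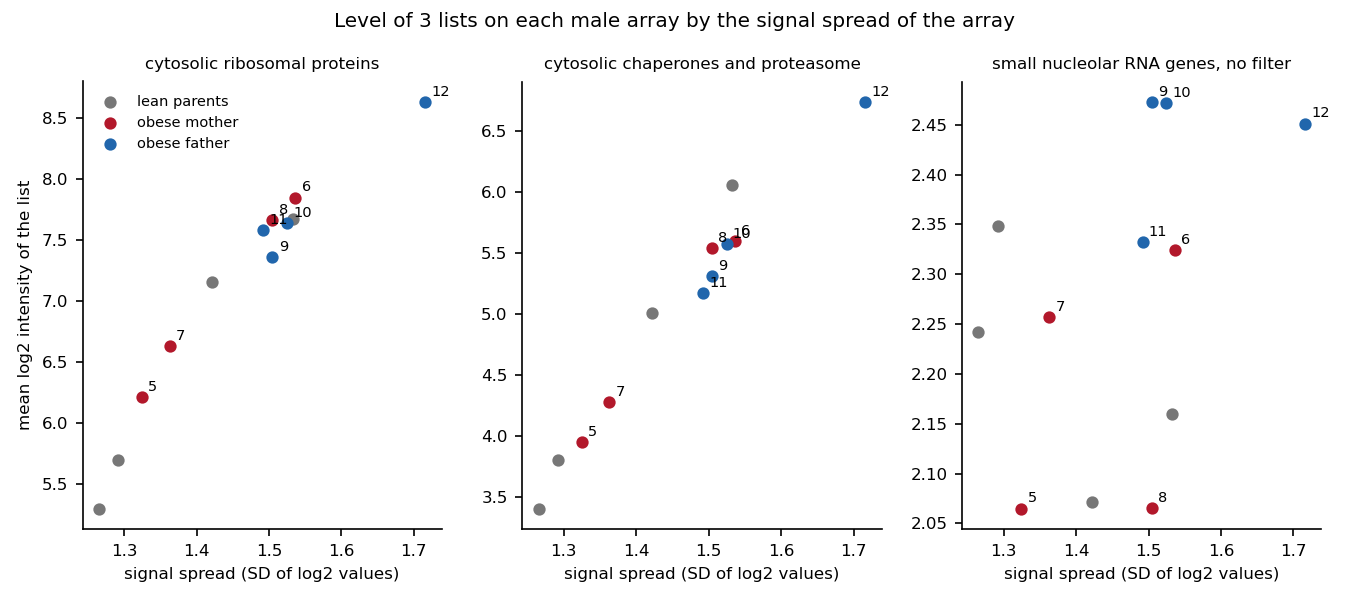
Mean level of 3 gene lists (vertical axes, log2 intensity) against the signal spread of each of the 12 male arrays (horizontal axis, SD of log2 values); numbers name the obese-parent arrays. Ribosomal protein and chaperone and proteasome genes are brighter on wider arrays in all groups, whereas the 54 small nucleolar RNA genes, taken without a filter, are at 2.33 to 2.47 in obese-father, 2.06 to 2.32 in obese-mother and 2.07 to 2.35 in lean-parent males.

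For all 54 small nucleolar RNA genes, without a filter, the medians were -0.13, -0.11 and -0.15, against 0.10, 0.03 and 0.01 for all 19938 genes. Under each setting 4 were lower and 0 higher at an unadjusted p under 0.05. As deposited, Snord47 was among the 4. Of all 19938 genes 345, 404 and 186 were lower and 1311, 670 and 231 higher. In females the median of the 54 as deposited was 0.09, against 0.03 for all genes. The mean level of the 54 was 2.06, 2.32, 2.26 and 2.07 in obese-mother and 2.47, 2.47, 2.33 and 2.45 in obese-father males. Obese-mother array 6 and obese-father array 11 nearly met, and lean-parent males reached into both groups. The 23 that passed the filter had -0.39, -0.42 and -0.36, but some of them, Snord47 included, passed it through the group where they were high.

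Lists of the other metabolic routes lay closer to 0. Glucose uptake and glycolysis had a median of -0.04, with 0 of 21 genes at an unadjusted p under 0.05. Hexokinase Hk1 read 3.29 on obese-mother array 5 against 7.01 to 9.39 on the other 7 arrays. Cholesterol synthesis had 0.13 and 1 of 19 lower, Insig1, the sterol sensor that holds back its activation (4.91 ± 0.21 against 5.39 ± 0.25). Insulin, adipokine and nutrient signalling had 0.05 and 0 of 26 in either direction, with Mtor at 2.57 ± 0.17 against 2.33 ± 0.06. Lipid synthesis and storage had -0.04. In that list and among trophectoderm genes, the fatty acid binding protein gene Fabp3 read 5.26, 7.58, 5.03 and 7.50 against 7.58, 8.30, 8.71 and 8.73 (difference -1.99, limma unadjusted p = 0.0326, adjusted p = 0.573). Its 2 lowest arrays were again 5 and 7. With the spread as a covariate these 4 lists had medians of 0.04, 0.04, 0.01 and 0.002, and for similar arrays 0.03, -0.01, -0.02 and -0.03, so no direction held for them.

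Antioxidant genes were split, with a median of -0.07 (0.08 with the covariate, 0.13 for similar arrays) and 2 higher and 1 lower at an unadjusted p under 0.05. Catalase, Cat, read 4.11, 4.00, 4.16 and 4.35 against 3.79, 3.76, 3.87 and 3.50, without overlap (difference 0.43, SE 0.13; limma unadjusted p = 0.00317, adjusted p = 0.573). Gstm1, a glutathione transferase, differed by 0.77 with overlap at obese-mother array 8 (2.89). The metallothionein Mt2 differed by -0.99. Among p53 targets and apoptosis genes (-0.03, 0.08 and 0.01), Aifm1, a mitochondrial flavoprotein, was lower by -0.79 and Bbc3, a p53-induced killer protein, higher by 0.39, both without overlap.

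Lineage genes differed little as groups. Trophectoderm genes had a median of -0.08, with 3 of 28 lower and 0 higher at an unadjusted p under 0.05, against 2.08% and 6.27% of all genes, and with the covariate 1 and 1. The 3 were Eomes, a transcription factor of trophoblast stem cells (4.26 ± 0.20 against 4.84 ± 0.63), Lcp1, an actin bundler (4.02 ± 0.78 against 5.12 ± 0.31), and Fabp3. Inner cell mass genes had -0.06, with 2 of 23 higher, the pluripotency regulators Utf1 (0.53) and Esrrb (0.35). Primitive endoderm genes had -0.02, -0.04 and -0.11, with 1 of 17 higher and 0 lower, and leaving out single arrays took the median as deposited from -0.06 to 0.03. Junction and blastocoel genes had -0.22, with the tight junction protein Marveld2 (-0.52) and the polarity protein Pard6b (-0.44) lower. In the activin, Nodal and BMP list 4 of 26 were higher and 0 lower, against 6.27% and 2.08% of all genes, and with the covariate 3 and 1. Beside Inhba these were Inhbb, the other activin subunit (2.88 ± 0.27 against 2.42 ± 0.15, no overlap, unadjusted p = 0.0112), the receptor Tgfbr2 (0.26) and the signal transducer Smad3 (0.40). Inhbb differed by 0.43 in females as well. With the spread as a covariate and for similar arrays the medians were 0.03 and 0.05 for trophectoderm, 0.13 and 0.11 for inner cell mass, and -0.01 and 0.02 for junction genes. Those of the activin list were 0.14, 0.06 and -0.01. All genes named here had a limma adjusted p of 0.271 or 0.573.

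Cell cycle genes ran both ways, with medians of -0.16, 0.10 and 0.05, and 2 of 41 higher and 3 lower at an unadjusted p under 0.05. Mad2l1, a spindle checkpoint protein, read 3.07, 3.26, 3.29 and 3.86 against 4.47, 5.59, 4.35 and 5.19 (difference -1.53). Mcm2, of the replicative helicase, was higher by 0.37. Among DNA methylation and chromatin genes (-0.05, 0.06 and -0.02) 0 of 47 had an unadjusted p under 0.05. The maintenance methyltransferase Dnmt1 was at 3.06 ± 0.24 against 3.36 ± 0.19, and the deacetylase Hdac1 at 4.28 ± 0.61 against 5.51 ± 0.43.

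Imprinted genes are of interest where the obese parent differs, since 1 parental allele is silent. Of 17 tested genes read from the maternal allele 3 were higher and 0 lower at an unadjusted p under 0.05, against 6.27% and 2.08% of all genes, and with the covariate 1 and 1. Their medians were 0.10, 0.01 and -0.03. The 3 were the potassium channel Kcnq1 (3.20 ± 0.15 against 2.77 ± 0.23, no overlap), the homeobox gene Dlx5 (0.37) and Tssc4 (0.34). Of 16 read from the paternal allele 1 was higher, Peg3 (2.56 ± 0.19 against 2.18 ± 0.28), with medians of 0.10, 0.01 and 0.02, and with the covariate 0 differed. The medians over all genes were 0.09, 0.03 and 0.02. Alleles were not measured.

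The lists described next had medians above 0 as deposited. Over all genes tested the medians were 0.09, 0.03 and 0.02. Among 5 groups of genes ranked by mean level, the largest median as deposited was 0.11. Interferon and innate immunity had 0.18, 0.07 and 0.07, with 2 of 16 higher, the cytokine Tnf (4.50 ± 0.22 against 3.87 ± 0.29) and the receptor Tlr2 (2.70 ± 0.06 against 2.47 ± 0.06), both without overlap. Lists of cells that could be carried over also had medians above 0. These were 0.28 (cumulus and granulosa cells, Inhba included), 0.25 (uterine and oviduct epithelium), 0.22 (blood and leukocytes) and 0.14 (sperm transcripts). With the spread as a covariate these were 0.11, 0.10, 0.06 and 0.05, and for similar arrays 0.03, 0.12, 0.06 and -0.02. Blood list means were 2.71 to 2.98 in obese-mother and 2.37 to 2.75 in obese-father males, and Ptprc, the pan-leukocyte marker, exceeded the median of all values on 0 arrays. The sperm protamine Prm1 was at 4.02 ± 0.30 against 3.95 ± 0.11. Oocyte-derived transcripts had 0.13, 0.07 and 0.14, with 0 of 13 at an unadjusted p under 0.05.

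Ranked by mean level, the dimmest 2663 genes had a median difference of 0.10 and 69.4% above 0, while the brightest 2662 had 0.005 and 50.6%. The groups between them had medians of 0.11, 0.11 and 0.09, with 70.2%, 69.4% and 65.6% above 0. With the spread as a covariate, 5 groups of such size had medians of 0.025 to 0.0369. Against lean-parent males, obese-mother males had 226 genes (1.7%) and obese-father males 1958 (14.7%) at an unadjusted p under 0.05. Both counts are for the values as deposited and share the lean-parent arrays, and the difference between them was not tested. Mean signal spread was 1.38 in lean-parent, 1.43 in obese-mother and 1.56 in obese-father males. The part of spread in these counts was not tested.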

How the data were processed

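Each pool was hybridized to 1 Affymetrix Mouse Gene 1.0 ST array after amplification of RNA from lysate (NuGEN kits, per the labels' protocols). The deposited values are log2 intensities that the authors computed by RMA in affy, as the submitters' processing notes state. For both tools the version, and for the probe sets the genome build, is not given here. All 35556 probe sets had values on 24 arrays. Probe sets with 1 gene symbol (21789) gave 19938 genes, 1621 had several symbols and 12146 none. For 999 genes with several sets, the set with the highest mean was used. Gene numbers of 21698 sets matched RefSeq (GRCm38.p6), and 0 symbols changed. The test covered the 13311 genes that lay above the overall median (2.56) on 4 or more of 24 arrays, and left out 6627.

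A mean for each of 6 groups was fitted to all 24 arrays with limma 3.58.1 (lmFit, eBayes) in R 4.3.3, with Benjamini-Hochberg adjustment over all genes tested and a threshold of 0.05. The procedure was tested on simulated data with independent noise, equal in all groups. The simulated arrays did not differ in signal spread, so that test says nothing about such differences or about unequal groups. The study's replicate numbers do not pair arrays. Single values were compared by exact permutation tests. Named genes are those that passed, the 14 of smallest unadjusted p per direction (1092 genes with uninformative names were left out), up to 4 members of each list with the smallest unadjusted p, cell type markers, Xist, Eif2s3y, Uty, Snord47 and Gas5. Members, lists and tests were chosen with earlier results of these data known. The number of arrays limits the precision. Alternatives are given in the closing section.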

Additional observations from a re-analysis of the deposited data

Results flagged for a closer look

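Of 288 groups of 4 arrays examined for a single array far from the other 3 (by Dixon's critical value for the gap over the range), 18 stood out, and chance gives about 1 in 20 groups. In obese-father array 12 these were the signal spread (1.72; the others 1.49 to 1.52), Rplp2 (7.55), Polr1e (2.24), Bbc3 (3.28), Mir205 (1.58), and the list means of fatty acid oxidation (3.94), insulin, adipokine and nutrient signalling (2.90) and endoplasmic reticulum stress (4.80; the others 3.93 to 4.08). In obese-mother array 5 they were Nhlrc1 (4.31), Xist (2.24), Lcp1 (2.85; the others 4.32 to 4.53) and Tnf (4.83). In obese-mother array 6 they were Eif2s3y (3.12; the others 1.62 to 1.82) and Dnajb1 (4.29). In obese-mother array 8 they were Cdc42ep2 (3.30), Cog1 (3.87) and the microRNA list mean (3.60), and in obese-father array 11 Snord8 (2.40).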

How the results depend on the processing

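Snord47 alone passed with a threshold of 0.10, no filter, averaged probe sets per gene, a robust prior with trend, centred arrays and quantile normalization. Nothing passed (0 genes) with all probe sets, the spread covariate (Snord47 -1.98, limma adjusted p = 0.0765), the 8 arrays alone (0.454), the 12 male arrays alone (0.469) or the stricter filter of 12 arrays, which removes Snord47. Array weights gave 2 genes (Snord47, Inhba at 0.0385), arrays of similar spread 1 (Acyp1, 1.42, adjusted p = 0.0406; Snord47 -1.89 at 0.417), and leaving out 1 array 0 to 2 (Sdhaf1 joined without array 10). Counts at an unadjusted p under 0.05 (1112; 835 higher, 277 lower) were 1311 higher without a filter, 1944 (1285, 659) with all probe sets, 464 lower with array weights, 463 higher with the spread covariate, 505 lower with 8 and 441 with 12 arrays, 241 (137, 104) at similar spread, and 449 to 1420 (331 to 1080, 118 to 342) leaving out 1 array. The difference between the sexes had 776 with the covariate (358 without). The spread difference kept its sign, from -0.0749 to -0.162 leaving out 1 array. Of 104 named genes, read under every setting but all probe sets, 2 turned, both at similar spread: Gdf3 (0.34 to -0.001282) and Rpl22 (-0.92 to 0.07353). Changes of the filter, the prior or the arrays that share the estimate of spread leave each difference as it was. Many of these genes were chosen for a small p in the same values, so the few turns say little. No paired analysis was possible because the groups share no replicate numbers. Where not stated, the cause was not tested. Weak signal limits dim genes, Snord47 included, whose obese-mother level lies below the median of all values.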
